A study of Mus musculus with 35 samples.

Results

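Testis RNA of Akt1 wild type mice was compared at postnatal day 25 between animals exposed to propylthiouracil (PTU) and unexposed animals. The comparison rests on 6 of the 35 arrays analysed here, chosen by their labels as the 3 exposed and the 3 unexposed wild type arrays of that age. Each gene was read as the log2 value of its brightest probe set with a single gene symbol, and 16305 genes were tested. All 6 mice were C57BL6 males with both Akt1 alleles intact (Akt1+/+), so they differ by label only in exposure. The series title calls PTU a neonatal goitrogen. Neither dose, route nor the last day of exposure is given in the sources used here. The design counts 1 mouse per array, and the p-values measure the spread between such arrays. Heterozygous (Akt1+/-) and homozygous mutant (Akt1-/-) mice of day 25, each with and without PTU, and wild type mice of day 15 are used below for comparison. These groups hold 3 arrays each except the exposed homozygous group, which holds 2.

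PTU blocks thyroid peroxidase and so the making of thyroid hormone. In the young testis thyroid hormone acts mainly on Sertoli cells, the somatic nurse cells of the seminiferous tubule, where it ends their division and promotes their maturation. A lack of the hormone early in life is known to prolong Sertoli cell division and to delay both the tight junctions of the blood-testis barrier and the first wave of germ cells. At the age studied the most advanced germ cells of a mouse testis are spermatids, the haploid cells that follow meiosis and build the acrosome and the tail.

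The arrays were alike as a set. Pearson correlations over genes ran from 0.993 to 0.996 among the unexposed arrays, from 0.994 to 0.998 among the exposed arrays and from 0.988 to 0.997 between the groups. Germ cell and Sertoli transcripts stood among the brightest, with Ldhc, the lactate dehydrogenase of spermatocytes and spermatids, at 14.61, 14.62 and 14.60 in unexposed and 14.62, 14.60 and 14.55 in exposed arrays. Clu, the secreted Sertoli protein clusterin, read 13.81, 13.64 and 13.73 without and 13.60, 13.45 and 13.69 with PTU. Spink8, a gene of the epididymis, lay between 5.94 and 6.40 in 5 of the arrays and at 8.72 in the third exposed array. That array also stood apart in fat and matrix genes, and for lists described singly below whose median shrank by more than 1.5 times without it, that median is given too. Akt1 itself was at 9.55, 9.38 and 9.51 in unexposed and 9.53, 9.50 and 9.44 in exposed testes, a difference of 0.01 with a 95% interval from -0.17 to 0.19. In homozygous mutant testes the same probe set averaged 9.36 without and 9.49 with PTU. Its reading thus does not tell intact from mutant alleles.

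No gene passed the test in wild type testis at this age. With limma over all 17 arrays of day 25 and Benjamini-Hochberg adjustment, 0 of 16305 genes had an adjusted p under 0.05 (0%), and the smallest adjusted p was 0.300. In a limma fit on the 6 wild type arrays alone 1 gene passed, Fgf14, and with limma array weights over the 17 arrays 6 passed, Ackr3, Zfp932, Cyb5r1, Fgf14, Sytl2 and 4933407E14Rik. At an unadjusted p under 0.05 there were 978 genes (6%), of which 624 were higher with PTU (3.83%) and 354 lower (2.17%). The count at that p depended on the fit. It was 1457 without the 2 exposed homozygous arrays, 2172 with the 6 wild type arrays alone and 2723 with array weights. With each wild type array left out in turn it was 518 to 913. The 3 exposed and 3 unexposed arrays did not overlap for 3337 genes (20.5%), with PTU higher for 1951 (12%) and lower for 1386 (8.5%). The median difference over all genes was 0.00, and 8296 genes (50.9%) had a difference above 0. The 95% interval of the difference lay inside -0.5 to 0.5 for 12972 genes and inside -1 to 1, a factor of 2 in either direction, for 15887. A difference of at least 1 in size was seen for 16 genes, 7 higher and 9 lower. In the sentences below, "higher" and "lower" describe the values of genes that did not pass.

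The 10 genes with the smallest p were Ackr3, Zfp932, Fhl2, Zfp974, Dynlt1f, Smoc2, Cyb5r1, Slc38a6, Gm11545 and Fabp4. Their adjusted p-values ran from 0.300 to 0.738. The arrays did not overlap for any of them (background 20.5%), which a choice by small p in the same arrays favours. Ackr3, an atypical chemokine receptor that removes the chemokine Cxcl12, was at 8.48, 8.42 and 8.57 in unexposed testes and at 8.98, 9.06 and 9.33 in exposed ones. The difference was 0.63 ± 0.10 (SE), a 1.55-fold higher level with a 95% interval from 1.33 to 1.80. Smoc2, a secreted calcium-binding matrix protein, read 8.79, 9.06 and 8.97 without and 9.35, 9.67 and 9.90 with PTU. Its difference was 0.70 ± 0.16, and its second probe set gave 0.64. Every exposed array was thus above every unexposed one for both genes, as for 12% of all genes.

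Fhl2, a LIM domain cofactor, was also higher in the exposed arrays, at 9.28, 9.42 and 9.57 against 9.72, 9.97 and 10.12. Zfp974, a zinc finger gene, differed by 0.35 ± 0.08. On the lower side stood Zfp932, another zinc finger gene, at 8.14, 8.30 and 8.16 without and 7.43, 7.47 and 7.60 with PTU, a difference of -0.70 ± 0.14. Cyb5r1, a cytochrome b5 reductase, was at 9.89, 9.72 and 9.80 against 9.37, 9.22 and 9.42. The replicate spread of both genes was small beside the gap between the groups, which a choice by small p favours. Dynlt1f, a dynein light chain gene, differed by -0.37 ± 0.08, Slc38a6, an amino acid transporter, by -0.41 ± 0.09, and Gm11545 by -0.68 ± 0.16. Dynlt1f belongs to a family of near-identical copies, so its probe set may read more than 1 of them.

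**Figure D1:**
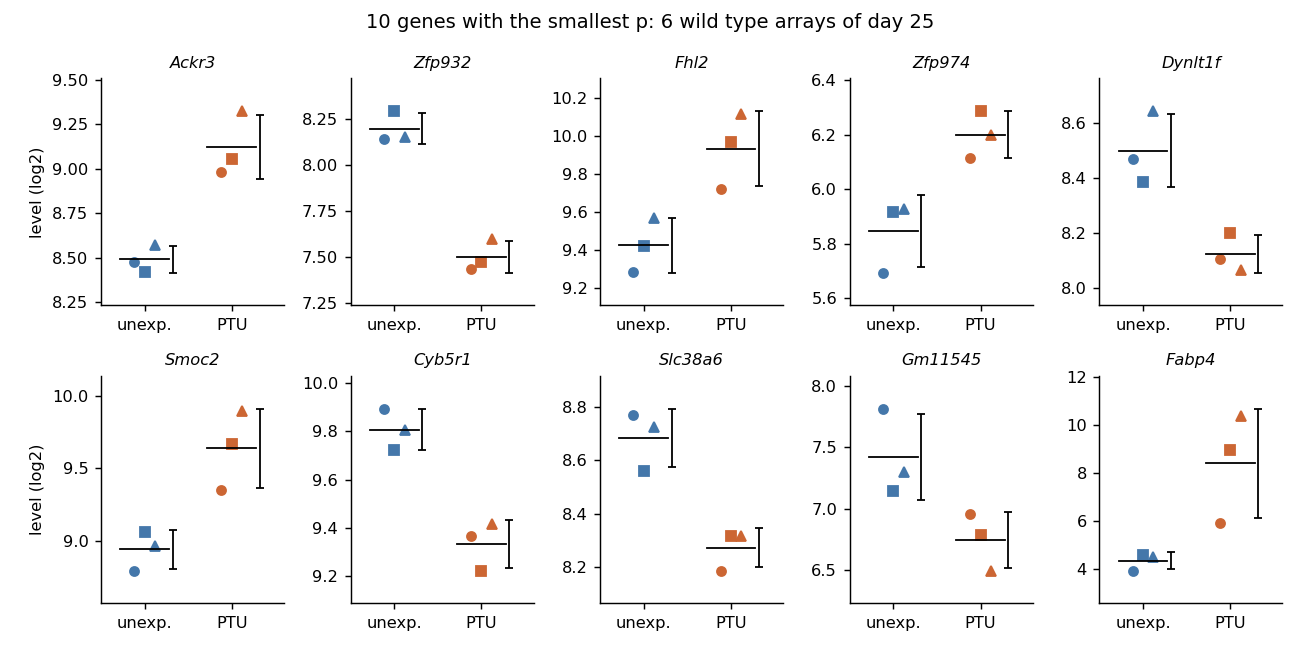
Log2 level in each of the 6 wild type arrays of day 25 for the 10 genes with the smallest p. Circles, squares and triangles are arrays 1, 2 and 3 of each group, black lines the means and bars ± 1 SD (n = 3). The genes were chosen by small p, and the groups do not overlap in any panel. Fabp4 has the widest spread in the exposed group, from 5.93 to 10.38.

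The widest differences were those of fat cell genes. Car3, a carbonic anhydrase abundant in fat and muscle, read 4.19, 4.66 and 4.68 in unexposed testes and 6.64, 9.22 and 10.76 in exposed ones. The unexposed values lie under 4.76, the level that a gene had to exceed in at least 2 arrays to be tested. The measured difference was 4.36 ± 1.06 with an adjusted p of 0.738. With the unexposed arrays set at that level the exposed mean of this probe set was at least 17.3-fold higher. The second probe set of Car3 gave a smaller difference, 1.585 ± 0.517, so the size depends on the probe set. Fabp4, the fatty acid binding protein of fat cells, followed the same order, at 3.94, 4.61 and 4.51 against 5.93, 8.95 and 10.38. Its difference was 4.07 ± 0.95, at least 12.7-fold higher by the same bound, with a measured fold interval from 4.10 to 68.5. Its second probe set gave 3.64 ± 0.80. Adipoq, the fat cell hormone adiponectin, was at 6.92, 6.64 and 6.45 without and 6.94, 7.80 and 9.31 with PTU. The first exposed array was thus close to the unexposed ones for Adipoq and far above them for Car3.

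Of 10 fat genes listed, 6 could be tested and 5 had an unadjusted p under 0.05, all higher (background 3.83%). Lpl, the lipase that frees fatty acids from lipoproteins, differed by 1.05 ± 0.37 and Retn, the hormone resistin, by 0.63 ± 0.26, and without the third exposed array by 0.60 and 0.25. The median difference over the 6 was 1.20, against 0.00 over all genes, and 0.65 without the third exposed array. The summed linear level of the list was 530 to 536 in the unexposed arrays and 674, 2021 and 4936 in exposed arrays 1, 2 and 3. In heterozygous testes, which share no array with this comparison, Car3 read 4.31, 6.10 and 7.45 without PTU and 4.14, 8.32 and 5.23 with it, so there the groups overlapped. In homozygous testes, which share none either, it read 3.88, 4.01 and 4.58 without PTU and 9.12 and 7.53 with it. That difference was 4.17 (limma adjusted p = 0.0054), and Adipoq differed there by -0.63. Of the 6 tested fat genes 3 passed as higher in homozygous testis and 0 as lower. There 6264 of all 16305 genes passed as higher and 5351 as lower (32.8%). In heterozygous testis 0 of the 6 passed as higher and 1 as lower (background 7.2% lower). Whether fat tissue beside the testis entered the samples was not tested. In RNA of a whole organ a change in the number of cells of a type and a change in RNA per cell cannot be told apart.

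Epididymal and other transcripts marked the third exposed array alone. Spink8, a serine protease inhibitor gene, differed by 0.78 ± 0.85 with all arrays and by -0.14 without that array. Of 13 epididymal genes listed 6 could be tested, none had an unadjusted p under 0.05, and their summed linear level was 370 to 394 in unexposed arrays, 429 and 421 in exposed arrays 1 and 2, and 772 in exposed array 3. Some of the 16 genes with a difference of at least 1 followed this array, and those named in the rest of this paragraph were chosen after their values were seen. Cyp2e1, a cytochrome P450 of liver and fat, was at 8.85 there and between 4.09 and 5.07 in the other 5. Defb42, an epididymal defensin, was at 7.29 there and between 4.07 and 4.35 elsewhere. H2-Q10, a secreted MHC class I gene, was higher in all exposed arrays, at 6.24, 6.57 and 7.83 against 5.28, 5.78 and 5.65. The part of such tissue in the other results was not tested.

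**Figure D2:**
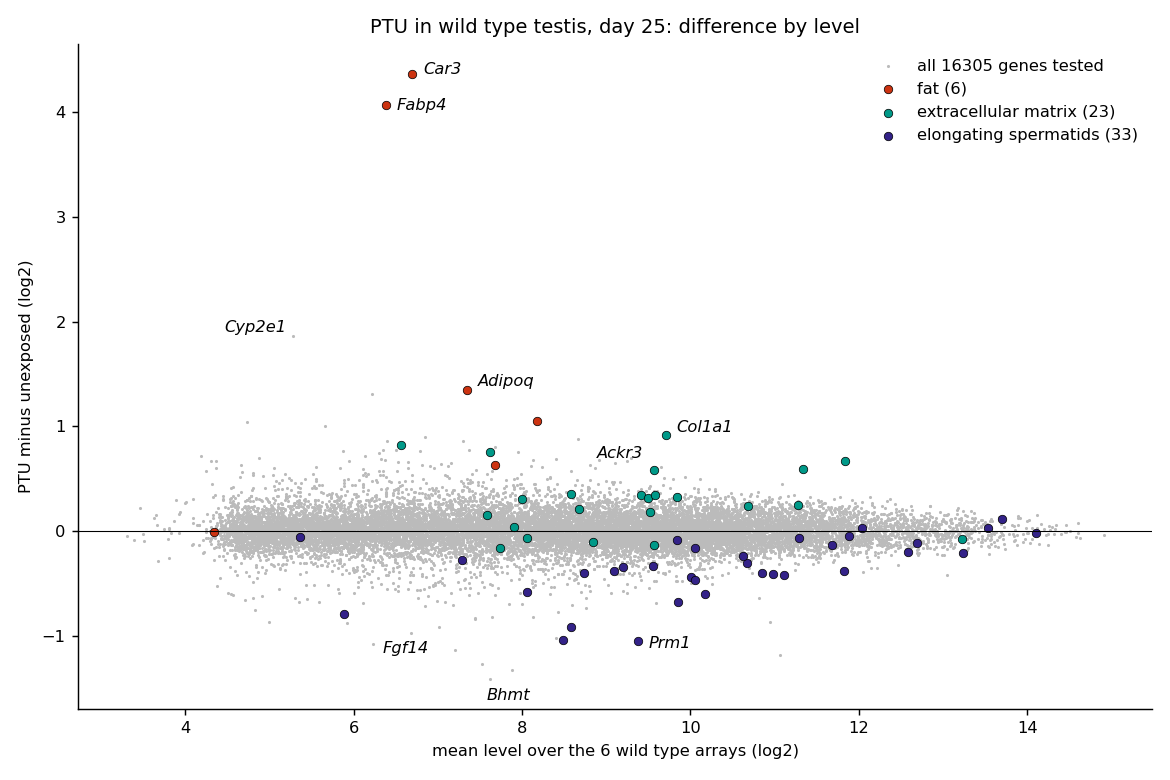
Difference between exposed and unexposed wild type testes (log2, vertical axis) against the mean level over the 6 arrays (log2, horizontal axis) for the 16305 genes tested (grey), with the tested genes of the fat, extracellular matrix and elongating spermatid lists in colour. Car3 at 4.36 and Fabp4 at 4.07 stand above all other genes, and 200 genes differ by at least 0.5 in either direction.

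Matrix and smooth muscle genes were on the higher side. Of 23 extracellular matrix genes tested, 18 had a difference above 0 (background 50.9%) and 7 an unadjusted p under 0.05, all higher (background 3.83%). The exposed arrays lay above the unexposed ones without overlap for 4 of the 23 (background 12%). The median difference of the 23 genes was 0.30, and 0.20 without the third exposed array. Col1a1, a chain of type I collagen, was at 8.98, 9.33 and 9.44 without and 9.50, 10.08 and 10.93 with PTU, a difference of 0.92 ± 0.30. Col5a2, of type V collagen, differed by 0.75 ± 0.23, Col3a1, of type III collagen, by 0.67 ± 0.29, and Col6a2, of type VI collagen, by 0.58 ± 0.24. The third exposed array was the highest for each of these genes, and without it the differences were 0.54 for Col1a1, 0.46 for Col5a2, 0.38 for Col3a1 and 0.29 for Col6a2. Among 11 peritubular myoid and smooth muscle genes the median was 0.15, and 0.046 without that array. Tagln, an actin-binding protein, differed by 0.52 ± 0.17 and Acta2, smooth muscle actin, by 0.33 ± 0.15, and without it by 0.26 and 0.19.

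Some genes of the hedgehog pathway, through which Sertoli cells signal to the cells between the tubules, were also higher. Sertoli cells release the ligand Dhh, the receptor Ptch1 on interstitial cells receives it, and Gli1 and Hhip are targets that report the pathway's activity. Gli1 was at 6.36, 6.58 and 6.67 in unexposed and 6.76, 6.94 and 7.04 in exposed testes, a difference of 0.38 ± 0.14. Hhip, which also binds the ligand, was at 5.13, 5.53 and 5.45 against 5.68, 5.82 and 5.92, a difference of 0.44 ± 0.15. Ptch1 differed by 0.28 ± 0.13, and its groups overlapped. Tcf21, a transcription factor of interstitial precursors, read 9.76, 9.78 and 10.08 without and 10.10, 10.44 and 10.55 with PTU. Over the 18 tested genes of the hedgehog and interstitial precursor list, 15 were above 0 (background 50.9%), 3 had an unadjusted p under 0.05, all higher (background 3.83%), and the median was 0.07. Without the third exposed array the median was 0.016, with 13 above 0, while Gli1 differed by 0.31.

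The germ cell lists follow in the order of development, and no gene of theirs passed. For 23 spermatogonial genes the median difference was 0.08, with 18 above 0 and none under an unadjusted p of 0.05, and it was 0.015 without the third exposed array. For 25 genes of early meiosis it was 0.12, with 20 above 0 (background 50.9%). It was 0.064 without the second unexposed and 0.071 without the third exposed array. Within that list 6 genes were higher at an unadjusted p under 0.05 (background 3.83%) and 1 was lower (background 2.17%), and exposed arrays lay above unexposed ones without overlap for 10 (background 12%). Tex11, needed for synapsis and crossing over, was at 8.62, 8.33 and 8.54 without and 8.87, 8.86 and 9.07 with PTU, a difference of 0.44 ± 0.10. Sycp1, the transverse filament of the synaptonemal complex, was at 12.12, 12.28 and 12.26 against 12.46, 12.47 and 12.67. Hormad1, which marks unsynapsed chromosome axes, differed by 0.30 ± 0.12, Tex15 by 0.22 ± 0.07, Tex12, another synaptonemal complex protein, by 0.23 ± 0.08 and the cohesin Smc1b by 0.24 ± 0.10. The 6 higher genes, singled out by their p, did not overlap between the groups. The lower one was Msh5, a mismatch repair protein that stabilises crossovers, with a difference of -0.25 ± 0.12.

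Pachytene spermatocyte genes were level. Their median difference over 26 genes was -0.02, with 11 above 0 and none under an unadjusted p of 0.05. Adam3, a sperm surface protein, read 12.24, 12.39 and 12.21 without and 12.49, 12.39 and 12.10 with PTU. Crisp2, an acrosomal protein, was at 14.10, 14.19 and 14.09 against 14.27, 14.19 and 14.11, and Pgk2, the phosphoglycerate kinase of meiotic and later germ cells, at 11.71, 11.83 and 11.65 against 11.95, 11.80 and 11.46. The groups overlapped for these 3 genes. The 95% intervals were -0.80 to 0.90 for Adam3, -0.31 to 0.44 for Crisp2 and -0.89 to 0.91 for Pgk2.

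Spermatid genes varied more between the arrays of a group than between the groups. The 31 round spermatid and acrosome genes had a median difference of -0.15, with 21 below 0, and the 33 elongating spermatid genes one of -0.33, with 30 below 0. No gene of either list had an unadjusted p under 0.05 (background 2.17% lower). Without the first unexposed array the medians were 0.00 and -0.06, and without the third exposed array -0.034 and -0.20. The list mean of the elongating spermatid genes was 11.12, 10.37 and 10.15 in unexposed arrays 1, 2 and 3 and 10.48, 10.21 and 9.91 in the exposed ones. Arrays 1 of both groups were the highest and arrays 3 the lowest, and the ranges overlapped. Between arrays of equal number the exposed one was the lower in all 3 pairs. The list means differed by -0.64, -0.16 and -0.24 for elongating and by -0.23, -0.086 and -0.080 for round spermatid genes. The labels do not pair the arrays. Equal numbers were taken as pairs from deviations in these same arrays, so the 3 pairs are a description and no test of a fall.

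The transition proteins Tnp1 and Tnp2 and the protamines Prm1 and Prm2, which replace the histones of the spermatid nucleus in that order, show the spread between arrays. The 150 bases before their RefSeq start sites (GRCm38.p6, all on the minus strand) are printed here because the transcripts of these genes moved together across the arrays. Prm2 is at chr16:10792106-10792255, Prm1 at chr16:10796824-10796973 and Tnp2 at chr16:10788656-10788805, side by side in 1 cluster, and Tnp1 at chr1:73015900-73016049. Capitals mark the letters TGACNTCA on either strand, close to the cyclic AMP response element that CREM, the activator of spermatid genes, binds.
Prm1: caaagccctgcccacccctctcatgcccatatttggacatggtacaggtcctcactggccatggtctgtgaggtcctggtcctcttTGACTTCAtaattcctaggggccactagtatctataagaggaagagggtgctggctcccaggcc
Prm2: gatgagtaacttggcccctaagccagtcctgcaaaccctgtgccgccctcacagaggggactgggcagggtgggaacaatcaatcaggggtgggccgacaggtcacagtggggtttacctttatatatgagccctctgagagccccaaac
Tnp1: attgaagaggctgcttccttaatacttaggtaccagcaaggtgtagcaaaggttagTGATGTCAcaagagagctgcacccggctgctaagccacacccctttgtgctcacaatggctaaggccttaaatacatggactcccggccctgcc
Tnp2: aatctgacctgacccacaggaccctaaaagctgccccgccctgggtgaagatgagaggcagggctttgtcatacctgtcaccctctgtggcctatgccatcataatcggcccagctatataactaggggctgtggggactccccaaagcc

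The motif occurs once in Prm1, 64 to 57 bases before the start, and once in Tnp1, 94 to 87 bases before it on the other strand. It was not found in the windows of Prm2 and Tnp2, and it is present in 5.7% of 32851 RefSeq windows of the same length. Prm1 was at 11.82, 8.90 and 8.97 in unexposed and 9.79, 8.84 and 7.92 in exposed testes. Prm2 read 10.95, 8.13 and 8.03 against 9.02, 7.96 and 7.39. In both genes the first unexposed array was the highest of the 6 and the third exposed array the lowest.

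Tnp1, at 11.95, 9.37 and 9.28 against 10.27, 9.38 and 8.90, and Tnp2, at 11.03, 7.98 and 8.00 against 8.98, 8.00 and 6.90, had the same order. The differences were -1.05 ± 0.82 for Prm1, -0.91 ± 0.79 for Prm2, -0.68 ± 0.74 for Tnp1 and -1.04 ± 0.86 for Tnp2, and each 95% interval held 0. Without the first unexposed array they were -0.09, 0.04, 0.19 and -0.03. Gapdhs, the sperm tail glyceraldehyde phosphate dehydrogenase, differed by -0.60 ± 0.38 and by -0.32 without that array.

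**Figure D3:**
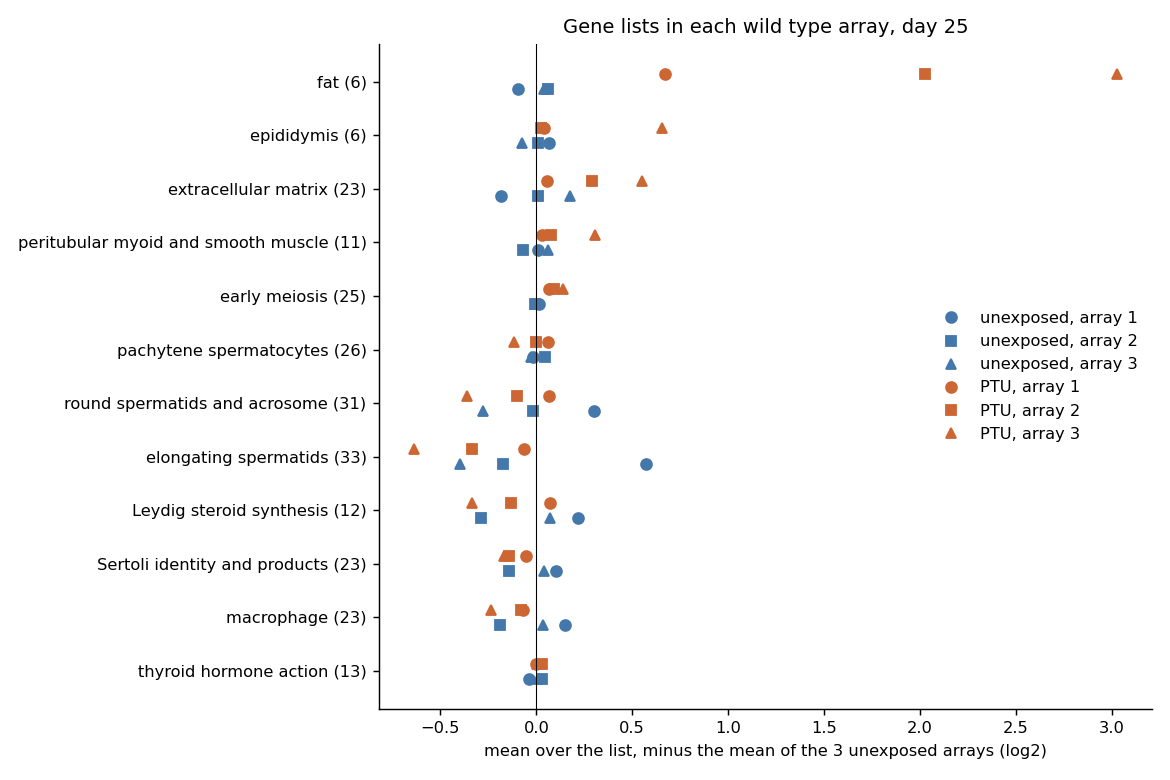
Mean log2 level of 12 gene lists in each wild type array of day 25, shown as the difference from the mean of the 3 unexposed arrays (number of tested genes in brackets). Blue marks are unexposed and orange marks exposed arrays. The fat list separates the groups, exposed array 3 alone is high in the epididymis list, and unexposed array 1 stands high in both spermatid lists.

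The spread of spermatid genes in wild type testis can be set beside the other genotypes of the same age. Prm1 averaged 9.90 ± 1.67 (SD, n = 3) in unexposed and 8.85 ± 0.94 (n = 3) in exposed wild type testes. It averaged 13.63 ± 0.81 (n = 3) and 9.68 ± 1.68 (n = 3) in heterozygous testes, and 13.09 ± 0.51 (n = 3) and 6.54 ± 0.32 (n = 2) in homozygous ones. The unexposed wild type arrays were thus all below the unexposed arrays of the other genotypes, and the exposed wild type and heterozygous arrays overlapped. Tnp2 had the same pattern, with means of 9.01 and 7.96 in wild type, 12.85 and 8.54 in heterozygous and 12.10 and 4.82 in homozygous testes. Within their own genotypes Prm1 fell by 3.95 in heterozygous (adjusted p = 0.0064) and by 6.55 in homozygous testes with PTU. The medians of the elongating spermatid list were -0.33 in wild type, -1.76 in heterozygous and -4.36 in homozygous testes.

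**Figure D4:**
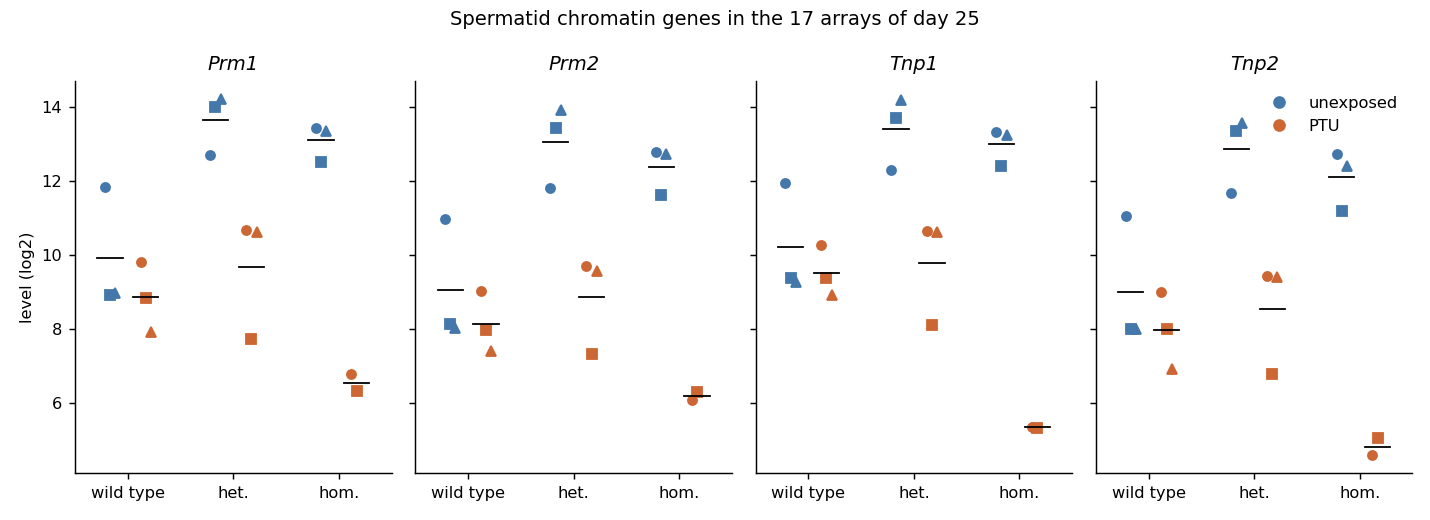
Log2 level of the spermatid genes Prm1, Prm2, Tnp1 and Tnp2 in the 17 arrays of day 25 by Akt1 genotype (het., heterozygous; hom., homozygous). Blue marks are unexposed and orange marks PTU-exposed arrays, and black lines are group means. The gap between the groups is narrowest in wild type, where the unexposed means (9.90 for Prm1) lie below those of the other genotypes.

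Tested directly, the difference in wild type testis departed from that in heterozygous testis for 0 of 16305 genes with limma (0%). At an unadjusted p under 0.05 there were 2982 genes (18.3%), against 6% for PTU in wild type testis. Within heterozygous testis 3042 genes passed (18.7%), 1174 of them lower (7.2%). With array weights 2003 genes passed the direct test of the departure. The smallest p of this test belonged to Zdhhc24, B3gnt8, Wipf3, Klhl23 and Rhob. Zdhhc24, a palmitoyl transferase, differed by -0.30 ± 0.08 in wild type and by 0.31 in heterozygous testis. Within homozygous testis 11615 genes passed (71.2%). The departure of wild type from homozygous testis passed for 9684 genes (59.4%), 5396 with a higher (33.1%) and 4288 with a lower value (26.3%) in homozygous testis. It rests on 2 exposed homozygous arrays, in which Spink8 read 12.92 and 12.75, and epididymal tissue in them was not separated from the result. Among its 5 smallest p-values, Cldn8, a claudin of tight junctions, was at 3.53, 3.54 and 3.24 without and 3.12, 3.48 and 3.46 with PTU in wild type testis, and Clca3a2, a chloride channel regulator, at 3.54, 3.49 and 3.66 against 3.59, 3.66 and 3.82. Both genes were above the level of 4.76 in the 2 exposed homozygous arrays and in no other, so they entered the test through the group in which they were high. Such genes were 35 of those tested and 34 of those that passed.

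Genes of thyroid hormone action, 13 of them tested, had a median difference of 0.01, and 1 gene had an unadjusted p under 0.05 (background 6%). The median interval of the list reached 0.26 to either side of the difference, against 0.25 over all genes. Klf9, a direct target of the hormone, was at 10.72, 10.87 and 10.91 in unexposed and 10.86, 10.91 and 10.86 in exposed testes, with a 95% interval of the difference from -0.23 to 0.31. The dimmer probe sets of Klf9 gave differences from -0.19 to 0.30. Hr, another target, differed by 0.01 with an interval from -0.31 to 0.34. Thra, the receptor of Sertoli cells, was at 8.82, 8.95 and 9.06 against 9.07, 9.07 and 9.24, a difference of 0.19 (interval -0.08 to 0.45). Its other probe sets gave 0.08 and -0.14. The gene under that p was Ncoa1, a coactivator of nuclear receptors, at 9.18, 9.06 and 9.17 without and 8.86, 8.87 and 8.98 with PTU.

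Leydig cells make testosterone from cholesterol, and their genes did not shift as a list. The 12 tested genes had a median difference of -0.02, with 6 above 0. Akr1c14, which reduces steroids and marks immature Leydig cells, was the one gene under an unadjusted p of 0.05, at 6.48, 6.21 and 6.54 without and 6.90, 7.10 and 7.53 with PTU, a difference of 0.77 ± 0.24. Cyp17a1, which makes androgen precursors, was at 12.06, 10.99 and 11.93 against 11.67, 10.86 and 8.89, and its difference of -1.18 ± 0.80 came down to -0.39 without the third exposed array. Hsd17b3, the last step to testosterone, was at 8.84, 7.12 and 7.62 against 7.39, 6.94 and 6.75, a difference of -0.83 ± 0.45. It was -0.34 without the first unexposed array.

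Several of the 9 genes lower by at least 1 showed the same order of arrays as Hsd17b3, and the genes of this paragraph were chosen after their values were seen. Klk1b24, a kallikrein protease gene expressed in Leydig cells, was at 9.36, 7.70 and 8.56 in unexposed and 7.85, 7.36 and 6.43 in exposed testes. Klk1b21 and Klk1b27 differed by -1.02 ± 0.42 and -1.14 ± 0.58, and by -0.56 and -0.74 without the first unexposed array. The kallikrein genes are near-identical copies, so their probe sets may share signal. Bhmt, a methyltransferase of methionine metabolism, read 9.37, 7.50 and 8.11 against 7.56, 6.94 and 6.25, and Lcn2, an iron-scavenging lipocalin, 9.50, 7.22 and 7.75 against 7.22, 6.77 and 6.67. In all 5 genes the first unexposed array was the highest and the third exposed array the lowest. Without the first unexposed array Bhmt differed by -0.89 in place of -1.41 and Lcn2 by -0.60 in place of -1.27. Fgf14, a channel-binding relative of the fibroblast growth factors, was steady within the groups, at 6.80, 6.76 and 6.76 against 5.73, 5.55 and 5.81, a difference of -1.08 ± 0.26 with an adjusted p of 0.738.

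Among 23 genes of Sertoli identity 17 were below 0, with a median of -0.08 and 2 under an unadjusted p of 0.05, both lower (background 2.17%). The median was -0.040 without the first unexposed and -0.13 without the second unexposed array. These were Inha, the alpha subunit of inhibin, at 12.30, 12.07 and 12.35 without and 12.01, 11.88 and 11.65 with PTU, and Aqp8, a water channel, at 9.68, 9.25 and 9.55 against 9.26, 9.02 and 8.70. Amhr2, the receptor of anti-Müllerian hormone, was chosen after its values were seen and differed by -0.42 ± 0.11, with -0.35 and -0.41 from its other probe sets. Genes of immature Sertoli cells had a median of 0.08 over 14 members, 10 of them above 0, and of 0.0012 with 7 above 0 when the third exposed array was left out. Amh, the hormone that these cells lose as they mature, was at 7.59, 7.53 and 7.41 against 7.60, 7.92 and 7.66, and Id2, an inhibitor of differentiation factors, at 8.40, 8.62 and 8.69 against 9.03, 9.21 and 9.51. Only Id2 among the 14 had an unadjusted p under 0.05 (background 6%), with a difference of 0.68 ± 0.18.

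The blood-testis barrier is built by Sertoli cells from claudins, occludin, gap junction and adhesion proteins. Over 33 tested barrier genes the median difference was -0.01, with 3 higher (background 3.83%) and 1 lower (background 2.17%) at an unadjusted p under 0.05. Cldn3, the claudin of the newly formed barrier, was at 8.28, 8.15 and 8.09 without and 7.96, 7.86 and 7.49 with PTU, a difference of -0.41 ± 0.15. The higher genes were Cldn1, at 4.65, 4.66 and 4.66 against 4.86, 5.07 and 5.62, the junctional adhesion molecule Jam2, with a difference of 0.30 ± 0.11, and the coxsackie and adenovirus receptor Cxadr, with 0.23 ± 0.11. For the main barrier claudin, Cldn11, the 95% interval ran from -0.37 to 0.16. It ran from -0.25 to 0.48 for Ocln, occludin, and from -0.15 to 0.29 for Gja1, a connexin of gap junctions.

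Of 23 macrophage genes 19 were below 0, with a median of -0.15 and 2 under an unadjusted p of 0.05, both lower (background 2.17%). The median was -0.082 without the first unexposed, -0.096 without the third unexposed, -0.23 without the second unexposed and -0.051 without the third exposed array. Laptm5, a lysosomal protein of leukocytes, was at 7.56, 7.44 and 7.64 without and 7.21, 7.40 and 7.28 with PTU, and Fcer1g, a chain of Fc receptors, at 7.81, 7.57 and 7.75 against 7.40, 7.41 and 7.07. The 26 cell cycle genes had a median of 0.01, with 4 higher (background 3.83%) and 1 lower (background 2.17%) at such a p. The higher ones were Ccne2, a cyclin of S phase entry, with a difference of 0.33 ± 0.14, and Bub1, Cdk1 and Top2a, which act in mitosis, with 0.22, 0.25 and 0.23. Cdkn1a, the inhibitor p21, differed by -0.49 ± 0.15. Akt2, the closest relative of Akt1, differed by -0.09 with an interval from -0.26 to 0.08, and none of the 21 tested genes of the Akt and PI3K list had an unadjusted p under 0.05. The medians of the cholesterol synthesis, interferon, MHC class II, endothelial, insulin-like growth factor, lactate supply, immediate early and blood lists lay between -0.07 and 0.12, and between -0.09 and 0.12 without the third exposed array.

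At day 15 many genes differed between PTU-exposed and unexposed wild type testes, read in other mice on another array type. There 2553 of 16710 genes passed (15.3%), 1091 higher (6.53%) and 1462 lower (8.75%). The ages were fitted apart and their difference was not tested, so the values are set side by side. Whether dose and days of exposure were alike at both ages is unknown. Below, the day 15 value is taken without its own error, for genes chosen because they passed at day 15. For the 1332 genes lower at day 15 and tested at both ages the median was -0.68 at day 15 and -0.03 at day 25, and the 95% interval at day 25 left out the day 15 value for 1179 (88.5%). Of them 37 were lower at day 25 with an unadjusted p under 0.05 (2.78%, against 2.17% of all genes). For the 982 genes higher at day 15 the medians were 0.45 and 0.06, 695 intervals left out the day 15 value, and 58 were higher with such a p (5.91%, against 3.83% of all genes). Across the 14281 genes tested at both ages the differences had a Pearson correlation of 0.107 and a Spearman correlation of 0.170, given as a description.

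Several germ cell genes named above were lower at day 15 and had differences near 0 at day 25. The day 25 intervals given above for Adam3 and Pgk2 were wide. Adam3 fell by 3.62 at day 15 and differed by 0.05 at day 25, Crisp2 by -2.83 and 0.06, Ldhc by -2.39 and -0.02, and Pgk2 by -2.27 and 0.01. Over the pachytene list the medians were -1.56 and -0.02. Of the 425 genes lower by at least 1 at day 15, the interval at day 25 left out the day 15 value for 424. Aqp8 fell by 2.60 at day 15 and differed by -0.50 at day 25. Hsd17b3, in contrast, rose by 1.96 at day 15 and differed by -0.83 at day 25, with an interval from -1.79 to 0.12.

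A minority of the day 15 calls had a value of like size at day 25. In the same direction, the day 25 value reached at least 50% of the day 15 value for 131 of the 982 higher and 56 of the 1332 lower genes. Among the genes named above, Smoc2 rose by 0.55 at day 15 and differed by 0.70 at day 25, Akr1c14 by 0.72 and 0.77, Gli1 by 0.33 and 0.38, Jam2 by 0.36 and 0.30, Cldn1 by 0.80 and 0.53, and Lpl by 0.91 and 1.05. Cldn3 fell by 0.57 at day 15 and differed by -0.41 at day 25. Without the third exposed array of day 25 the differences were 0.31 for Cldn1, 0.60 for Lpl and -0.27 for Cldn3. Others passed at day 15 with larger values, such as Hhip at 1.00 against 0.44, Thra at 1.08 against 0.19, Amh at 0.72 against 0.22 and Cxadr at 1.01 against 0.23. For each of these 4 genes the day 25 interval left out the day 15 value. The day 15 value has an interval of its own, and for Hhip the intervals overlapped, at 0.66 to 1.33 for day 15 and 0.12 to 0.76 for day 25.

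**Figure D5:**
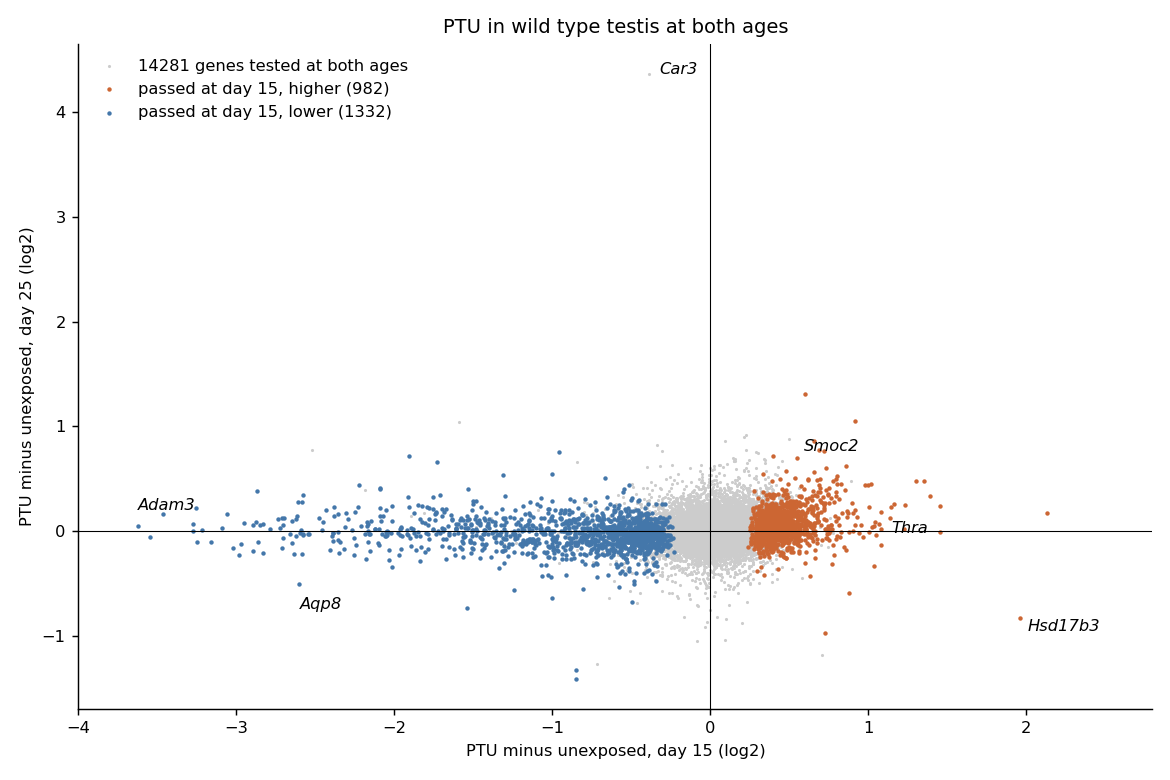
Difference between exposed and unexposed wild type testes at day 15 (log2, horizontal axis) and at day 25 (log2, vertical axis) for the 14281 genes tested at both ages. Orange and blue points passed at day 15 as higher (982) or lower (1332), and most of them lie close to 0 on the day 25 axis, with medians of 0.06 and -0.03.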

How the data were processed

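The authors deposited log2 intensities from RMA, per the submitters' processing notes. No version is given in the sources used here. Biotin-labelled cRNA was hybridised to 3' expression arrays of 1 type at day 25, per the labels' protocols and the design text. Symbols came from the platform annotation, and probe sets with several symbols or none were left out. The brightest probe set stood for its gene, and a gene entered with values above the 25th percentile of all values (4.76) in at least 2 arrays.

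All 17 arrays of day 25 were fitted as 6 groups in R 4.3.3 with limma 3.58.1 (lmFit, contrasts.fit, eBayes), with Benjamini-Hochberg adjustment and a threshold of 0.05. The 18 arrays of day 15 were fitted apart. Standard errors are moderated and intervals are 95%. The fit was tested on simulated data. The number of arrays limits precision, and the median interval reached 0.25 to either side of the difference. Equal sample numbers deviated together (correlations 0.330, 0.233 and 0.396), so they were taken to pair the samples, a hint from the data and not from the labels.

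Genes are named by rule: up to 6 smallest p per list, a fixed set of testis and thyroid genes, the 5 smallest p of each interaction and, as fewer than 5 genes passed, the 10 smallest p. The 26 lists, their members and the naming rule were chosen with earlier results of these data known. Alternatives covered the filter, the probe set, quantile normalization, the arrays fitted, array weights, the sample number as a block, control probe covariates and each array left out. One more, all probe sets with or without a symbol, was chosen after seeing the data.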

Additional observations from a re-analysis of the deposited data

Results flagged for a closer look

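The PTU difference of homozygous testis departed from that of wild type testis for 9684 genes by the interaction term of the limma fit. By label these groups differ in genotype under the same exposure. The exposed homozygous group holds 2 arrays, and both read high for Spink8, a gene of the epididymis. Epididymal tissue in these arrays was not separated from the result, so the share that belongs to genotype was not tested. In the same 2 arrays the beta-actin 3 prime minus 5 prime signal, an RNA quality control, was 1.08 and 1.44. It was 0.95 to 1.31 in the unexposed homozygous and 0.55 to 0.67 in the wild type arrays. The poly-A control mean was 8.25 and 9.64, against 6.11 to 7.03 and 7.66 to 8.47. These controls were not fitted as covariates in the interaction, so their part was not tested.

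The 5 smallest p-values belonged to genes that were dim in wild type testis. Of them Clca3a2, Cldn8 and Khdc1a were above the filter level of 4.76 in the 2 exposed homozygous arrays alone, so they were tested through the group in which they were high. The interaction, given as homozygous minus wild type on the log2 scale with its standard error, was 3.46 ± 0.16 for Clca3a2, 4.51 ± 0.24 for Cldn8, 2.55 ± 0.14 for Khdc1a, 2.23 ± 0.13 for Rgn and 3.87 ± 0.24 for 2300002M23Rik. The largest adjusted p of the 5 was 2.9e-07.

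The spermatid genes differed the other way. Their interaction was -5.50 ± 1.23 for Prm1 (adjusted p = 0.00147), -5.26 ± 1.18 for Prm2 (adjusted p = 0.00149), -6.96 ± 1.12 for Tnp1 (adjusted p = 0.000141) and -6.24 ± 1.29 for Tnp2 (adjusted p = 0.000857). Of the 10 genes with the smallest p in wild type testis, Ackr3 was also higher with PTU in homozygous testis, by 1.63, and its interaction was 1.00 ± 0.15 (adjusted p = 0.000103). Cyb5r1 differed by -0.47 in wild type and 0.46 in homozygous testis, with an interaction of 0.93 ± 0.16 (adjusted p = 0.000225).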

How the results depend on the processing

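The count of 0 genes in wild type testis held in 17 of the 19 alternatives, among them each array left out (0 to 0 genes, with 518 to 913 at an unadjusted p under 0.05). It was 1 with the 6 wild type arrays alone (2172 at an unadjusted p under 0.05) and 6 with array weights (2723 at such a p). The heterozygous interaction called 2003 genes with array weights and 0 otherwise, and the homozygous one 7919 to 9780. Blocking on the replicate number let 0 genes pass (907 at an unadjusted p under 0.05), 0 in the heterozygous and 9487 in the homozygous interaction. On the 6 wild type arrays alone the block let 0 genes pass (2888 at an unadjusted p under 0.05), so that Fgf14, called there without it (adjusted p = 0.0254), was not called with it (adjusted p = 0.104). The block changed no other call of wild type testis in these fits.

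Of 1630 values of the 86 genes under the alternatives, 17 changed sign, all of genes that did not pass. Ldhc was at 0.00016 with quantile normalization and at 0.042 with the poly-A controls as a covariate. With an array left out, the values ran from -0.030 to 0.16 for Adam3, -0.038 to 0.049 for Akt1, -0.18 to 0.034 for Cldn8, -0.082 to 0.076 for Hr, -0.015 to 0.081 for Klf9, -0.033 to 0.00036 for Ldhc, -0.097 to 0.15 for Pgk2, -1.42 to 0.044 for Prm2, -0.14 to 1.24 for Spink8 and -1.14 to 0.19 for Tnp1. The cause was not tested. The 3 arrays per group and the dim signal of fat genes in unexposed testes limit what could be seen.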
